A study of Mus musculus with 24 samples.

Results

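The complement genes C1qa, C1qb, C1qc, C2, C4b, C3, Cfb, C3ar1 and C5ar1 were followed in mouse macrophages across 24 RNA-seq libraries. These 9 genes were taken from a deposited table of 47643 genes by matching Ensembl gene IDs to the listed symbols. The list was made with earlier results of these data known. All 9 had enough counts to be tested. Mouse macrophages made from induced pluripotent stem cells (called iPSC-derived) were compared with macrophages grown from bone marrow. Each source was sampled on day 0 without co-culture and on days 3, 6 and 12 with co-culture, which gave 8 groups of 3 libraries. The series' design text calls the replicates independent and the day 0 cells controls of the same batch. The labels name neither the co-culture partner nor a strain, an iPSC line or a number of donors, so whether the iPSC-derived cells come from 1 clone is not known from them. Day 0 and later cells differ in both time and co-culture, which cannot be told apart, and the differences between days 3 and 12 lie within co-culture.

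Complement is a set of plasma and cell-made proteins that tag targets for uptake and call in phagocytes. In the classical pathway C1q, built from the products of C1qa, C1qb and C1qc, binds a target and switches on proteases that cut C4 and C2 into a C3-cleaving enzyme. In the alternative pathway factor B, encoded by Cfb, does the same work together with a fragment of C3. Small fragments of C3 and C5 signal through the receptors C3aR and C5aR1. In brain, microglia are the main source of C1q, and C1q and C3 take part in the removal of synapses.

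In the GRCm38/mm10 coordinates of the deposited table the C1q genes lie side by side on the minus strand of chromosome 4. C1qa (ENSMUSG00000036887.5) spans 136895917 to 136898803, C1qc (ENSMUSG00000036896.5) 136889804 to 136893065 and C1qb (ENSMUSG00000036905.8) 136880129 to 136886187. On the minus strand of chromosome 17 lie C4b (ENSMUSG00000073418.4) at 34728380 to 34743882, Cfb (ENSMUSG00000090231.10) at 34856374 to 34862518 and C2 (ENSMUSG00000024371.14) at 34862604 to 34898265. C3 (ENSMUSG00000024164.15) is on chromosome 17 at 57203970 to 57228136. The receptor genes are C3ar1 (ENSMUSG00000040552.8) on chromosome 6 at 122847138 to 122856161 and C5ar1 (ENSMUSG00000049130.5) on chromosome 7 at 16246743 to 16259540. Cfb and C2 are neighbours, and a read-through gene model, Gm20547, overlaps both. Of the exonic bases of Cfb 79.5% are shared with that model, and of those of C2 46.9% are shared with it or with Zbtb12 on the opposite strand. Reads in shared exons were counted for neither gene, so the levels of Cfb and C2 are understated, in every library by the same counting rule. C4b has a near-identical copy, C4a, and reads that map to both were not counted. C4a kept 67 counts over all 24 libraries.

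Promoter sequences from RefSeq (GRCm38.p6) were found for 5 of the 9 genes. The 250 bases before the RefSeq start of C1qb, C1qc and C3 are shown 5′ to 3′ on the strand of the gene, because C1qb and C1qc had nearly the same pattern over the groups and C3 followed another course over time in each source. They lie on the minus strand at chr4:136886201-136886450, chr4:136892915-136893164 and chr17:57228137-57228386. Capitals mark matches to GAGGAA or its other-strand form TTCCTC, the core bound by PU.1, the macrophage transcription factor encoded by Spi1.
C1qb: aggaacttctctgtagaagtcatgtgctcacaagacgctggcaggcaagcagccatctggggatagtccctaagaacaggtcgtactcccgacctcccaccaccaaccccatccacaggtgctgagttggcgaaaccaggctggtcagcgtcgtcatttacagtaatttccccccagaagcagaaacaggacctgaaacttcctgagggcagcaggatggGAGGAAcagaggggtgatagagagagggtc
C1qc: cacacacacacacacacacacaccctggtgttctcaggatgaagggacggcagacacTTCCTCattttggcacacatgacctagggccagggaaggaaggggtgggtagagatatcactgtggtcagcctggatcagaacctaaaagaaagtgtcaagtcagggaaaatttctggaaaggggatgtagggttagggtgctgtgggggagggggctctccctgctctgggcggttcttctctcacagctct
C3: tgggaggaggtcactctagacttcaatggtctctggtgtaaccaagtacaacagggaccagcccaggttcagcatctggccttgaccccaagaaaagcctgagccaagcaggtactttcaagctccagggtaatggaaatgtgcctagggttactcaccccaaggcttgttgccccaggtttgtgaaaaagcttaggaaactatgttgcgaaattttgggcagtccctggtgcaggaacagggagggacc
The match in C1qb begins 30 bases before the RefSeq start and the one in C1qc 193 bases before it, on the other strand. For both genes the RefSeq start differs from the gene start in the deposited table, so these distances depend on the start used. In C1qc the deposited start, 136893065, lies inside the window, so the later part of that window is within the annotated gene. The PU.1 core occurs in 23.3% of all 32851 promoter windows of this length. On both strands the windows were also searched for the MAF half-site TGCTGAC (3.81% of all windows), the STAT site TTCNNNGAA (7.02%), the interferon response element core, GAAA, 2 free bases and GAAA (2.98%), and the NF-kB site, GGG, 2 free bases and TTTCC (1.41%). The C3 and C5ar1 windows hold none of the 5 motifs, and that of C3ar1 holds an NF-kB match, GGAAAGGCCC, 14 bases before the start. These matches are descriptions of letters only.

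Library totals ran from 5839316 to 11805478 counts. Levels are counts scaled to library size (CPM), with library sizes adjusted by the TMM method. Changes come from edgeR's quasi-likelihood test over 15000 genes, with p-values adjusted by the Benjamini-Hochberg method. They are given on the log2 scale beside a standard error (SE). That SE was derived as the size of the change divided by the square root of the test's F value. "Rose" and "fell" are used only below an adjusted p of 0.05, and p-values measure the spread between these libraries. The 8 macrophage markers Csf1r, Adgre1, Cd68, Mertk, Fcgr1, Lyz2, Ptprc and Spi1 were all detected in every group. In iPSC-derived libraries 4 stood apart in 1 member: day 0 replicate 1, day 3 replicate 3, day 6 replicate 1 and day 12 replicate 3. Their C1qc counts were 0.205 to 0.295 of their C1qb counts, against 0.654 to 0.808 in the other 8 iPSC-derived libraries and 0.442 to 0.663 in the 12 bone marrow-derived ones. Chosen after the values were seen, Spi1 had 106 to 179 CPM in those 4 libraries and 216 to 502 CPM in the other 8. Taf10, a general transcription factor gene chosen the same way, had 2.12 to 6.75 CPM in the 4 and 9.80 to 36.6 CPM in the other 8. Where leaving these 4 out changed a call, the value without them is given too. They were chosen for low C1qc, which narrows the spread of C1qc among the libraries that are left, so C1qc is given without them as a value with no test. Without them days 0 and 6 keep replicates 2 and 3, and days 3 and 12 keep replicates 1 and 2. A difference without them between day 0 and day 3 or 12 thus also sets unlike replicate numbers beside each other.

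C1qa rose in both sources at every later day, and by more than any other C1q gene. Its iPSC-derived libraries had 335, 332 and 241 CPM on day 0, 1073, 1302 and 1042 CPM on day 3, 1892, 935 and 1731 CPM on day 6 and 2969, 2758 and 3130 CPM on day 12. The bone marrow-derived libraries had 294, 312 and 288 CPM on day 0, 2188, 2357 and 1978 CPM on day 3, 2236, 2069 and 1862 CPM on day 6 and 1846, 2773 and 2379 CPM on day 12. Day 0 was thus alike in both sources, every later library lay above every day 0 library, and days 3, 6 and 12 overlapped in bone marrow-derived cells. In iPSC-derived cells the log2 fold change over day 0 was 1.91 ± 0.19 on day 3 (adjusted p = 9.7e-08), 2.33 ± 0.20 on day 6 (5.6e-09) and 3.29 ± 0.20 on day 12 (6.2e-11). For bone marrow-derived cells it was 2.87 ± 0.20 on day 3 (3.0e-10), 2.79 ± 0.20 on day 6 (6.7e-10) and 2.97 ± 0.20 on day 12 (2.2e-10). From day 3 to day 12 C1qa rose again in iPSC-derived cells (1.37 ± 0.19, adjusted p = 4.3e-05), while the bone marrow-derived difference was 0.10 ± 0.19 (adjusted p = 0.83). The difference between these differences was 1.27 ± 0.27 (adjusted p = 0.0068).

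C1qb had the highest level per kilobase of exon of the 9 genes in all 8 groups. Among iPSC-derived libraries it had 1277, 1357 and 1624 CPM on day 0, 3173, 3311 and 4124 CPM on day 3, 4318, 2191 and 4963 CPM on day 6 and 5215, 4939 and 5717 CPM on day 12. The matching bone marrow-derived values were 3327, 3194 and 3309 CPM on day 0, 5894, 5745 and 5365 CPM on day 3, 6576, 5964 and 5726 CPM on day 6 and 4120, 6254 and 5644 CPM on day 12. The iPSC-derived cells started lower and reached the range of the bone marrow-derived cells by day 12. C1qb rose by 1.90 ± 0.20 in iPSC-derived cells from day 0 to day 12 (adjusted p = 1.6e-07) and by 0.70 ± 0.19 in bone marrow-derived cells (adjusted p = 0.0096). The 2 changes differed by 1.19 ± 0.27 (adjusted p = 0.0026). Without bone marrow-derived day 12 replicate 2 the bone marrow-derived change was 0.58 and did not pass (adjusted p 0.0036 to 0.060 over the 6 fits that leave out 1 library).

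C1qc carried the library difference described above. On days 0, 3, 6 and 12 in turn, the iPSC-derived libraries had 376, 1051 and 1062 CPM, 2424, 2677 and 845 CPM, 1023, 1737 and 3513 CPM, and 4149, 3771 and 1351 CPM. In bone marrow-derived libraries it had 2069, 1977 and 2058 CPM, 3908, 3664 and 3496 CPM, 3850, 3569 and 3309 CPM, and 2626, 2765 and 3391 CPM on the same days. In each iPSC-derived group the low library lay below the other 2, so day 0 overlapped with days 3 and 6. C1qc rose in iPSC-derived cells on day 12 (1.90 ± 0.48, adjusted p = 0.0064) and on day 6 (1.33 ± 0.47, adjusted p = 0.043), and on day 3 the difference was 1.26 ± 0.47 (adjusted p = 0.067). The day 6 call was lost without any 1 of day 0 replicates 1, 2 and 3 and day 6 replicates 2 and 3, with log2 fold changes of 0.72 to 1.67 over the 6 fits that leave out 1 library, and in a fit on those 2 groups alone. Without the 4 libraries the day 3 difference was 1.30. With DESeq2 that day 3 difference passed (adjusted p = 0.021), as it did with no filter on low counts and without day 3 replicate 3 (0.91 to 1.65 over the 6 fits that leave out 1 library). The edgeR fit with no filter put it at 1.29 with an adjusted p of 6.6e-16, although the libraries of days 0 and 3 overlapped. P-values of the fit with no filter are therefore not taken at face value, here or for other genes. Bone marrow-derived C1qc differed from day 0 by 0.86 ± 0.46 on day 3 (adjusted p = 0.23), 0.81 ± 0.46 on day 6 (0.24) and 0.52 ± 0.46 on day 12 (0.46), with every library of those days above all those of day 0. The fit over all 8 groups shares 1 estimate of spread for C1qc, the 4 low libraries included. In fits on only the bone marrow-derived groups compared, all 3 differences passed (adjusted p = 2.3e-07, 1.1e-07 and 0.00073), and they also passed with no filter on low counts. Over all 12 alternatives the adjusted p ran from 4.8e-08 to 0.35 on day 3, 1.1e-07 to 0.38 on day 6 and 0.00073 to 0.65 on day 12. The change from day 0 to day 12 differed between the sources by 1.37 ± 0.65 (adjusted p = 0.16), and without the 4 libraries the value was 1.40. From day 3 to day 12 it differed by 0.97 ± 0.65 (adjusted p = 0.52), and without them the value was 0.98. With no filter on low counts, the fit whose p-values are not taken at face value, both interactions passed (adjusted p = 1.2e-09 and 0.00012). The adjusted p was up to 0.31 and 0.72 over 19 alternatives each.

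C1qa counts were higher relative to C1qb counts with co-culture in both sources. The tests of ratios were not planned beforehand. The 4 libraries were picked by C1qc per C1qb, which shares C1qb with this ratio, so a test without them is not free of that choice. There were 0.253 to 0.569 C1qa counts per C1qb count in the 9 co-cultured iPSC-derived libraries, against 0.148 to 0.263 in the 3 day 0 libraries, a small overlap. In bone marrow-derived libraries the ratio was 0.325 to 0.448 with co-culture and 0.0870 to 0.0978 on day 0, with no overlap. The mean log2 ratio was higher with co-culture by 0.98 in iPSC-derived cells (exact permutation test over libraries, two-sided, p = 0.00909, adjusted over 6 tests 0.0182). Without the 4 libraries this difference was 1.17 (exact permutation p = 0.0357, the smallest of 28 arrangements, adjusted over 3 tests 0.0536). In bone marrow-derived cells it was 2.08 (exact permutation p = 0.00455, the smallest that the 220 arrangements allow, adjusted 0.0136). C1qc per C1qb differed by -0.05 in iPSC-derived cells (exact permutation p = 0.80) and by -0.06 in bone marrow-derived cells (exact permutation p = 0.577). Without the 4 libraries, which this ratio had picked out, the iPSC-derived value was 0.12. C1qa per C1qc was 0.443 to 2.32 in co-cultured and 0.226 to 0.892 in day 0 iPSC-derived libraries, which overlapped, and differed by 1.03 (exact permutation p = 0.123, adjusted over 6 tests 0.184), or by 1.06 without the 4 libraries. In bone marrow-derived libraries it was 0.560 to 1.003 with co-culture and 0.140 to 0.158 on day 0, a difference of 2.14 (exact permutation p = 0.00455, adjusted 0.0136). By group the mean of C1qa per C1qb in iPSC-derived cells was 0.218 ± 0.0616 on day 0, 0.328 ± 0.0707 on day 3, 0.404 ± 0.0486 on day 6 and 0.558 ± 0.0110 on day 12 (SD, n = 3 each). A ratio of counts also depends on gene length, so it is read across libraries and not as a ratio of transcripts.

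**Figure D1:**
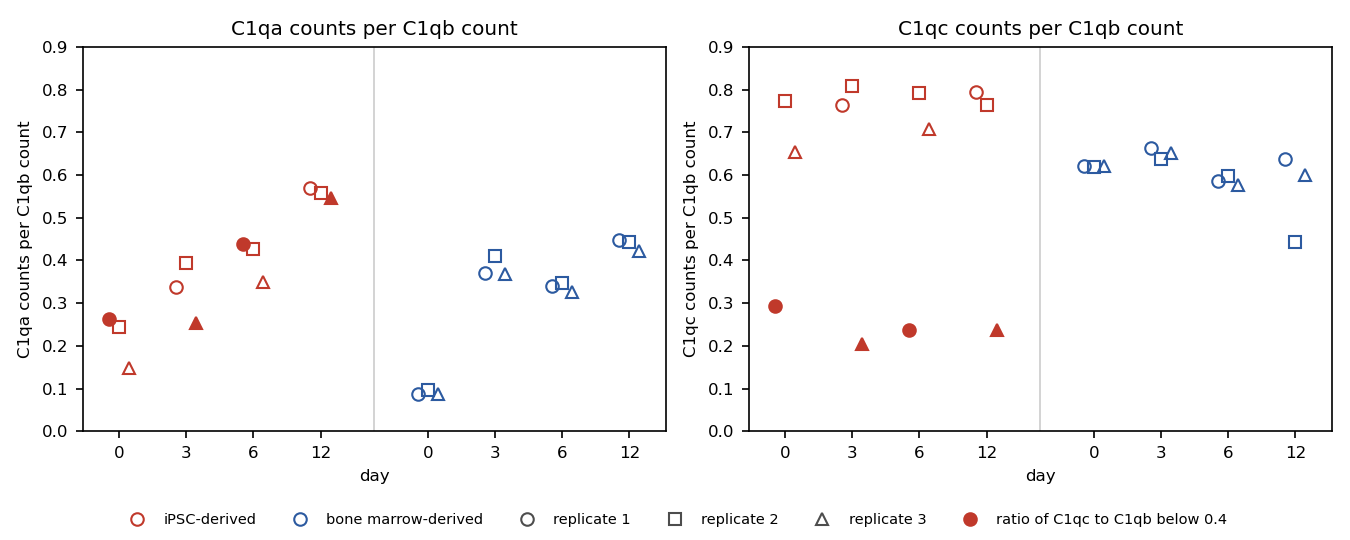
C1qa counts (left) and C1qc counts (right) per C1qb count in each of 24 libraries, by day, with iPSC-derived libraries in red left of bone marrow-derived ones in blue. Filled points are the 4 iPSC-derived libraries with 0.205 to 0.295 C1qc counts per C1qb count, and bone marrow-derived day 0 libraries have the lowest C1qa ratios, 0.0870 to 0.0978.

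C2 and C4b, whose products form the classical C3-cleaving enzyme, were split between the sources. C2, a serine protease gene, had 41.7, 28.9 and 15.2 CPM on day 0 in iPSC-derived libraries, 92.2, 93.2 and 52.4 CPM on day 3, 42.7, 49.6 and 21.97 CPM on day 6 and 47.2, 32.3 and 23.5 CPM on day 12. No bone marrow-derived library had more than 1.87 CPM, and the counts over 3 libraries there were 10, 9, 18 and 16 on days 0, 3, 6 and 12. The iPSC-derived libraries were above all bone marrow-derived ones on every day. C2 was higher in iPSC-derived cells by 6.06 ± 0.78 log2 units on day 0 (adjusted p = 2.4e-06), 7.90 ± 0.80 on day 3 (2.1e-07), 5.67 ± 0.72 on day 6 (7.8e-06) and 6.03 ± 0.74 on day 12 (6.4e-06). With 1 library left out the day 6 value ran from 5.19 to 8.08 and the day 12 value from 5.48 to 6.78, each highest without bone marrow-derived replicate 3 of that day, which held 16 of the 18 counts on day 6 and 10 of the 16 on day 12. Within iPSC-derived cells the day 3 difference from day 0 was 1.47 ± 0.53 (adjusted p = 0.056), and C2 passed in none of the 4 comparisons between days. The same test without the 4 libraries put the day 3 difference at 2.10 and below the threshold, with adjusted p 1.3e-05 to 0.18 over the 13 alternatives. That choice dropped the highest day 0 library of C2 (41.7 CPM) and its lowest day 3 library (52.4 CPM). With a replicate block in edgeR and all libraries kept, the difference was 1.53 and passed (adjusted p = 0.0086).

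C4b, whose product is tethered to the target surface by the classical pathway, went the other way. Its iPSC-derived libraries had 0.98, 6.24 and 1.18 CPM on day 0, 1.23, 1.93 and 0.34 CPM on day 3, 0.88, 0.62 and 1.37 CPM on day 6 and 8.27, 1.33 and 5.16 CPM on day 12. Bone marrow-derived libraries had 5.80, 0.58 and 5.21 CPM on day 0, 12.9, 10.8 and 11.7 CPM on day 3, 32.4, 23.8 and 29.3 CPM on day 6 and 33.7, 19.3 and 24.6 CPM on day 12. Day 0 overlapped between the sources, and from day 3 on every bone marrow-derived library was the higher. C4b rose over day 0 in bone marrow-derived cells on day 6 (2.89 ± 0.69, adjusted p = 0.0038) and day 12 (2.75 ± 0.68, adjusted p = 0.0045), with 1.62 ± 0.67 on day 3 (adjusted p = 0.10). The day 3 libraries lay above those of day 0, and the difference passed in a fit on those 2 groups alone (adjusted p = 0.033) and with no filter on low counts (0.0021), with up to 0.29 over 12 alternatives. In iPSC-derived cells the day 12 difference was 0.80 ± 0.68 (adjusted p = 0.43). Left out, day 0 replicate 2 moved it to 2.16 and past the threshold (adjusted p 0.045 to 0.89 over the 6 fits that leave out 1 library). C4b was lower in iPSC-derived than in bone marrow-derived cells by -3.33 ± 0.74 on day 3 (adjusted p = 0.0021), -4.86 ± 0.78 on day 6 (9.5e-05) and -2.40 ± 0.67 on day 12 (0.021). The day 12 call was lost without iPSC-derived replicate 2 or 3 or bone marrow-derived replicate 1 (log2 -2.98 to -1.92, adjusted p 0.021 to 0.096 over the 6 fits).

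**Figure D2:**
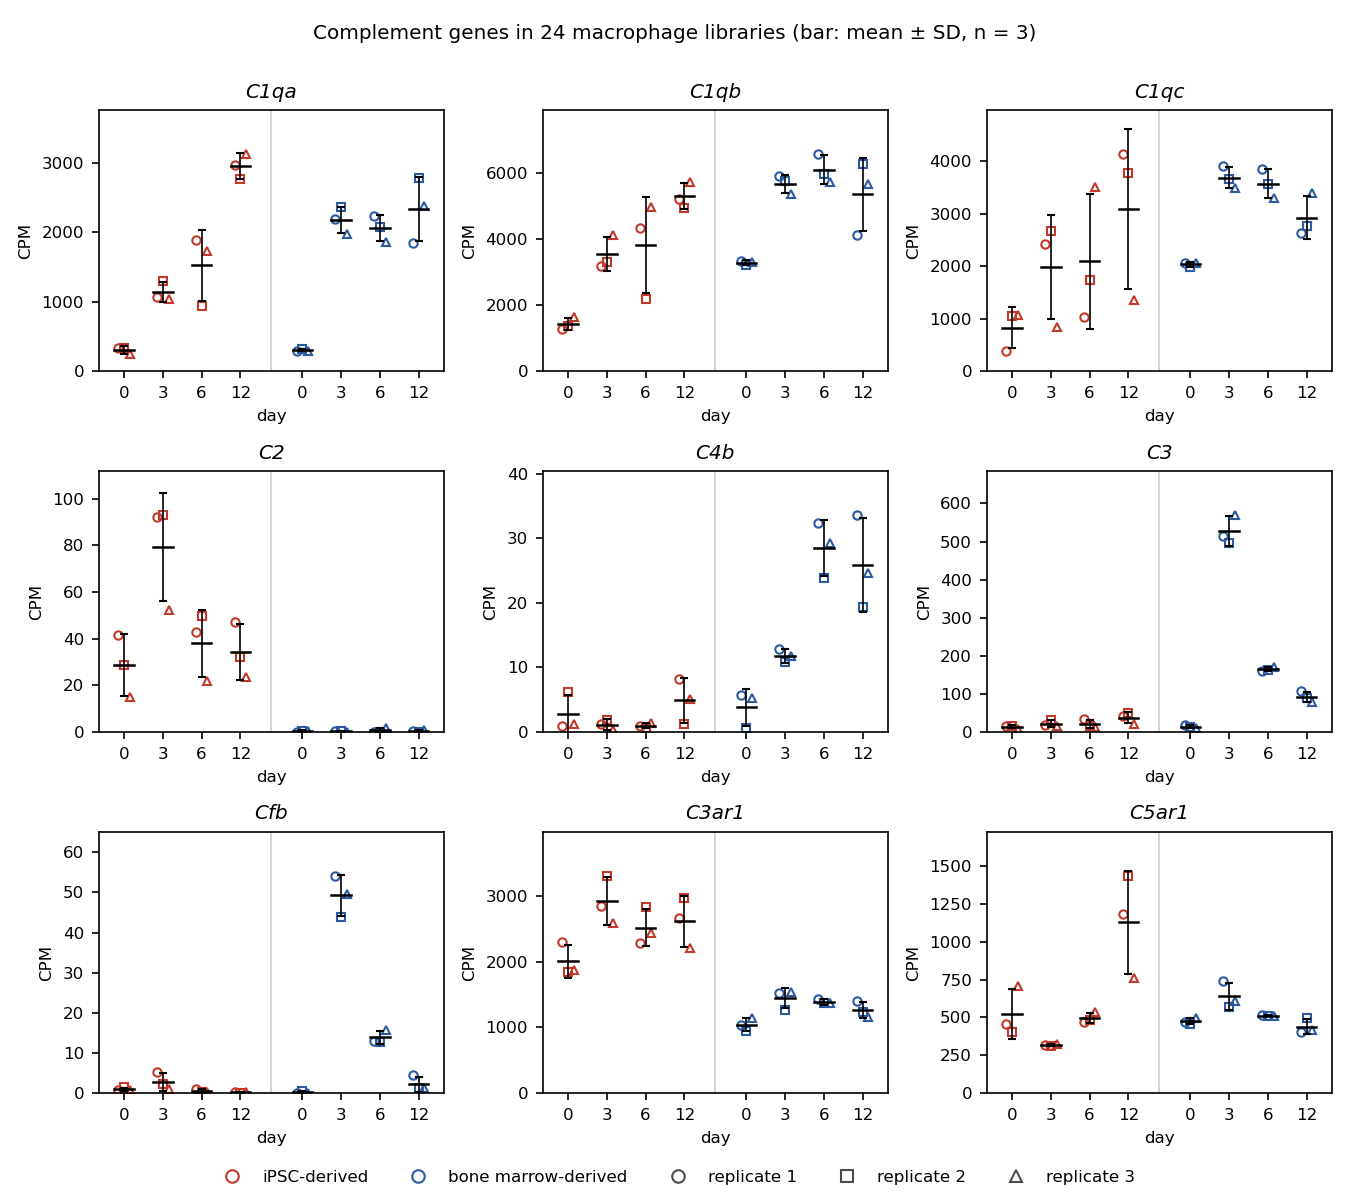
Level of each of the 9 genes in CPM by day in iPSC-derived (red, left) and bone marrow-derived (blue, right) libraries, with open symbols for libraries and bars for the mean ± SD of 3. C2 lies at 15.2 to 93.2 CPM in iPSC-derived libraries and at no more than 1.87 CPM in bone marrow-derived ones, while C3 and Cfb are highest in bone marrow-derived cells on day 3.

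C3 and Cfb showed a day 3 peak in bone marrow-derived cells. C3, the protein on which the pathways converge, had 16.2, 15.2 and 9.01 CPM on day 0 in iPSC-derived libraries, 18.1, 31.8 and 15.3 CPM on day 3, 33.8, 16.99 and 13.5 CPM on day 6 and 41.6, 49.3 and 21.5 CPM on day 12. The bone marrow-derived libraries had 19.2, 13.7 and 10.4 CPM on day 0, 515, 496 and 571 CPM on day 3, 161, 164 and 172 CPM on day 6 and 107, 90.0 and 80.1 CPM on day 12. The 4 bone marrow-derived days did not overlap, and from day 3 on every library lay above the iPSC-derived ones of its day. In iPSC-derived cells C3 rose on day 12 by 1.48 ± 0.34 (adjusted p = 0.0025), and on day 3 the difference from day 0 was 0.69 ± 0.34 (adjusted p = 0.17). Without the 4 libraries that day 3 difference was 1.06 and passed (adjusted p 0.0079 to 0.60 over 13 alternatives). That choice dropped the highest day 0 library of C3 (16.2 CPM) and its lowest day 3 library (15.3 CPM). With a replicate block in edgeR and all libraries kept, the day 3 difference was 0.69 and passed (adjusted p = 0.046). The difference from day 3 to day 12 was 0.79 ± 0.33 (adjusted p = 0.15), and 0.87 without the 4 libraries, which passed (0.0033 to 0.47 over 13 alternatives). C3 rose over day 0 in bone marrow-derived cells by 5.19 ± 0.38 log2 units on day 3 (adjusted p = 1.9e-09), 3.52 ± 0.35 on day 6 (2.3e-07) and 2.67 ± 0.34 on day 12 (5.0e-06). From day 3 to day 12 it fell by 2.52 ± 0.33 (adjusted p = 2.8e-05). The change from day 3 to day 12 was higher in iPSC-derived than in bone marrow-derived cells by 3.31 ± 0.46 (adjusted p = 0.00020). The change from day 0 to day 12 differed by -1.20 ± 0.47 (adjusted p = 0.077), which passed in 5 of 19 alternatives (0.00090 to 0.19).

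Cfb, the protease gene of the alternative pathway, had 0.77, 1.42 and 0.75 CPM in iPSC-derived libraries on day 0, 5.13, 2.17 and 0.92 CPM on day 3, 1.13, 0.25 and 0.20 CPM on day 6 and 0.24, 0.09 and 0.20 CPM on day 12. In bone marrow-derived libraries it had 0, 0.46 and 0 CPM on day 0, 54.2, 43.8 and 49.7 CPM on day 3, 12.99, 12.8 and 15.8 CPM on day 6 and 4.41, 1.19 and 1.17 CPM on day 12. Its highest libraries were those of days 3 and 6 in bone marrow-derived cells, and the 3 day 12 iPSC-derived libraries held 5 counts in all. Cfb rose in bone marrow-derived cells by 8.11 ± 0.84 on day 3 (adjusted p = 1.0e-07), 6.28 ± 0.82 on day 6 (4.0e-06) and 3.66 ± 0.87 on day 12 (0.0028), where day 0 held 4 counts, all in replicate 2. When 1 library was left out, the day 3 value moved between 7.603 and 11.80, the day 6 value between 5.78 and 9.98 and the day 12 value between 2.74 and 7.34, lowest without day 12 replicate 1. The highest were those without bone marrow-derived day 0 replicate 2, which leaves 0 counts on day 0, so that the fitted value depends on the prior count. The day 12 call was lost in a fit on those 2 groups alone (adjusted p 2.8e-06 to 0.050 over 12 alternatives). From day 3 to day 12 Cfb fell in both sources, by 3.88 ± 0.82 in iPSC-derived cells (adjusted p = 0.0034) and by 4.45 ± 0.63 in bone marrow-derived cells (adjusted p = 4.0e-05). In a fit on those 2 iPSC-derived groups alone the call was lost (adjusted p 2.9e-07 to 0.11 over 13 alternatives). The iPSC-derived value was -3.04 without day 3 replicate 1, and the bone marrow-derived one -5.37 without day 12 replicate 1. From day 0 to day 3 the iPSC-derived difference was 1.48 ± 0.65 (adjusted p = 0.12), which passed in 2 of 13 alternatives (0.032 to 0.60). From day 0 to day 12 the iPSC-derived difference was -2.40 ± 0.90 (adjusted p = 0.053), which passed in 4 of 13 alternatives (0.0093 to 0.26). It was lower than the bone marrow-derived change by -6.06 ± 1.25 (adjusted p = 0.00094), with -9.72 without bone marrow-derived day 0 replicate 2 and -5.14 without bone marrow-derived day 12 replicate 1.

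C3, C4b and Cfb are also made by fibroblasts and astrocytes, so markers of those cells were read beside them. The summed level of 8 fibroblast markers was 7.88 to 40.4 CPM on day 0, 58.6 to 143 CPM on day 3, 498 to 925 CPM on day 6 and 525 to 702 CPM on day 12 in iPSC-derived libraries. In bone marrow-derived libraries it was 1.56 to 21.2, 36.2 to 46.6, 50.2 to 77.9 and 155 to 270 CPM on those days, with Pdgfrb at 0 on day 6. The fibroblast sum was therefore higher in iPSC-derived than in bone marrow-derived cells on days 3, 6 and 12, while C3, C4b and Cfb were lower. From day 0 to day 12, 7 of 8 fibroblast markers rose in iPSC-derived and 6 of 8 in bone marrow-derived cells, where 1 of 8 had risen by day 3. Over 8 astrocyte markers the sums were 116 to 191, 31.5 to 72.0, 76.8 to 126 and 126 to 160 CPM in iPSC-derived libraries on days 0, 3, 6 and 12, with Aqp4 at 0 on day 3. They were 87.5 to 108, 154 to 163, 85.4 to 115 and 97.3 to 118 CPM in bone marrow-derived libraries. On day 3 the astrocyte sum was thus lower in iPSC-derived than in bone marrow-derived libraries, as C3 and Cfb were. Most of that gap was Aldoc, at 22.8 ± 14.99 CPM in iPSC-derived and 119 ± 5.57 CPM in bone marrow-derived cells on day 3, a gene that had 104 ± 31.5 and 78.0 ± 6.79 CPM on day 0 without co-culture (SD, n = 3 each). Gfap, the astrocyte filament gene, had 1.06 ± 1.04 CPM in iPSC-derived and 2.03 ± 0.892 CPM in bone marrow-derived cells on day 3, and 43.0 ± 1.502 and 16.6 ± 1.05 CPM on day 12. From day 0 to day 12, 5 of 7 tested astrocyte markers rose and 2 fell in iPSC-derived cells, and 5 rose and 1 fell in bone marrow-derived cells, where 4 of 7 had risen by day 3. The part of these cells in the C3, C4b and Cfb results was not tested. All 8 neuron markers rose in bone marrow-derived cells on day 3. Their sum there was 43.5 to 60.5 CPM, against 0 to 1.28 CPM on day 0. In iPSC-derived libraries the neuron sum was 1.72 to 2.95 CPM on day 0 and 17.5 to 42.9 CPM on day 3. By day 12, 6 of 8 neuron markers had risen over day 0 in iPSC-derived and 5 of 8 in bone marrow-derived cells. Oligodendrocyte markers summed to 35.0 to 64.6, 67.2 to 111, 115 to 286 and 94.5 to 212 CPM in iPSC-derived libraries on days 0, 3, 6 and 12. In bone marrow-derived libraries they summed to 57.6 to 73.3, 78.5 to 106, 78.4 to 93.99 and 87.3 to 120 CPM. The sources thus overlapped on days 0, 3 and 12. Of the day 0 sums most was Mbp, at a mean of 44.6 CPM in iPSC-derived and 63.1 CPM in bone marrow-derived cells. Pluripotency markers summed to at most 22.9 CPM in iPSC-derived and 4.498 CPM in bone marrow-derived libraries, both on day 12. Neutrophil markers summed to no more than 2.56 CPM in any library. In bulk RNA fewer cells of a type and less RNA per cell cannot be told apart.

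The receptor genes behaved unlike each other. C3ar1, the receptor for the C3 fragment C3a, was higher in iPSC-derived than in bone marrow-derived cells on every day, with no overlap. Over days 0, 3, 6 and 12 the iPSC-derived libraries had 2297, 1850 and 1870 CPM, 2856, 3315 and 2597 CPM, 2289, 2836 and 2440 CPM, and 2664, 2978 and 2205 CPM. The bone marrow-derived libraries had 1045, 941 and 1144 CPM, 1529, 1265 and 1547 CPM, 1437, 1366 and 1365 CPM, and 1401, 1233 and 1155 CPM. The lowest iPSC-derived library of all days, at 1850 CPM, was above the highest bone marrow-derived one, at 1547 CPM. The log2 difference between the sources was 0.94 ± 0.14 on day 0 (adjusted p = 5.2e-06), 1.01 ± 0.14 on day 3 (4.2e-06), 0.86 ± 0.13 on day 6 (5.8e-05) and 1.05 ± 0.14 on day 12 (6.1e-06).

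Changes of C3ar1 over time were small. It rose over day 0 on day 3 in iPSC-derived cells (0.54 ± 0.13, adjusted p = 0.0049) and in bone marrow-derived cells (0.47 ± 0.13, adjusted p = 0.014). On day 6 in iPSC-derived cells the difference was 0.33 ± 0.13 (adjusted p = 0.073), and it was 0.50 and passed without the 4 libraries (0.012 to 0.25 over 13 alternatives). It also rose on day 12 in iPSC-derived cells (0.38 ± 0.13, adjusted p = 0.038) and on day 6 in bone marrow-derived cells (0.41 ± 0.13, adjusted p = 0.031). Bone marrow-derived day 12 differed from day 0 by 0.28 ± 0.13 (adjusted p = 0.15), with no overlap. That difference passed without scaling factors (adjusted p = 0.012) and in a fit on those 2 groups alone (0.036), with up to 0.41 over 12 alternatives. Without scaling factors both iPSC-derived calls were lost (0.35 on day 3 and 0.25 on day 12, adjusted p up to 0.058 and 0.17 over 13 alternatives each). The iPSC-derived day 12 call was also lost without day 0 replicate 2 or 3 or day 12 replicate 1 or 2, with log2 0.30 to 0.49 over the 6 fits, and in a fit on those 2 groups alone. In bone marrow-derived cells the day 3 call was lost without day 0 replicate 2 or day 3 replicate 1 or 3 (0.42 to 0.56). The day 6 call there was lost without day 0 replicate 1 or 2 or without any of the day 6 libraries (0.37 to 0.51).

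C5ar1, the receptor for the C5 fragment C5a, had 455, 404 and 708 CPM on day 0 in iPSC-derived libraries, 319, 312 and 326 CPM on day 3, 470, 485 and 537 CPM on day 6 and 1181, 1438 and 763 CPM on day 12. Bone marrow-derived libraries had 472, 460 and 494 CPM on day 0, 742, 569 and 608 CPM on day 3, 517, 512 and 507 CPM on day 6 and 405, 494 and 418 CPM on day 12. In iPSC-derived cells day 3 was the lowest and day 12 the highest of all 8 groups, with no overlap with the group next in order. C5ar1 rose there on day 12 by 1.11 ± 0.19 over day 0 (adjusted p = 7.8e-05) and by 1.82 ± 0.19 over day 3 (adjusted p = 8.2e-07). It fell by 0.71 ± 0.18 from day 0 to day 3 (adjusted p = 0.0069), a call that was lost when only those 2 groups were fitted, and without day 0 replicate 3 (-0.87 to -0.43, adjusted p 0.0025 to 0.086 over the 6 fits). The 3 differences from day 0 in bone marrow-derived cells were 0.43 ± 0.18 (adjusted p = 0.11), 0.11 ± 0.18 (0.74) and -0.11 ± 0.18 (0.71) on days 3, 6 and 12. The day 3 libraries lay above those of day 0, and that difference passed in a fit on those 2 groups alone (adjusted p = 0.0041), without scaling factors (0.036) and with no filter on low counts (0.043), with up to 0.36 over 12 alternatives. The change to day 12 was higher in iPSC-derived cells by 1.22 ± 0.26 from day 0 (adjusted p = 0.0012) and by 2.37 ± 0.26 from day 3 (adjusted p = 6.9e-06).

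**Figure D3:**
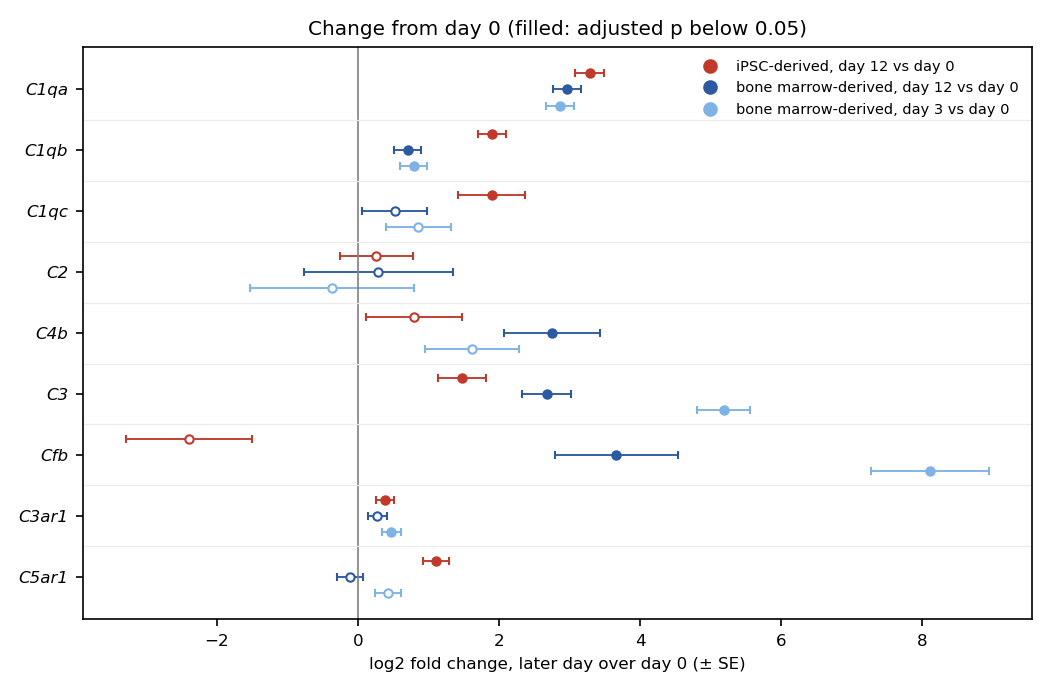
Log2 fold change over day 0 with SE for the 9 genes on day 12 in iPSC-derived cells and on days 12 and 3 in bone marrow-derived cells, from edgeR. Filled points passed an adjusted p of 0.05; C3 and Cfb are at 5.19 and 8.11 in bone marrow-derived cells on day 3, and C1qa is near 3 in all 3 comparisons.

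Counted over the 9 genes, 4 passed on day 3 against day 0 in iPSC-derived cells, where 19.4% of the 15000 tested genes passed. On day 6 there were 3 (C1qa, C1qb and C1qc, against 25.4% of tested genes) and on day 12 there were 6 (these and C3, C3ar1 and C5ar1, against 24.7%). The bone marrow-derived counts were 5 of 9 on day 3 (against 18.5%), 6 on day 6 (against 19.6%) and 5 on day 12 (C1qa, C1qb, C4b, C3 and Cfb, against 23.8%). The median log2 fold change of the 9 genes on day 12 was 1.11 in iPSC-derived cells and 0.70 in bone marrow-derived cells, beside 0.04 over all tested genes in each. From day 3 to day 12 3 genes passed in iPSC-derived cells (C1qa and C5ar1 up, Cfb down, against 8.89%). C3 and Cfb passed in bone marrow-derived cells, both down, against 8.45%. The comparisons with day 0 share the day 0 libraries within a source. Because the 9 genes were listed with earlier results known, their counts beside all tested genes are descriptions.

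Between the sources 5 of 9 genes passed on day 0, where 36.0% of tested genes did. C2, Cfb and C3ar1 were higher in iPSC-derived cells, and C1qb (-1.21 ± 0.20, adjusted p = 2.9e-05) and C1qc (-1.29 ± 0.47, adjusted p = 0.037) were lower. Cfb differed by 2.48 ± 0.94 (adjusted p = 0.042) at 0.980 ± 0.384 CPM in iPSC-derived and 0.155 ± 0.268 CPM in bone marrow-derived cells (SD, n = 3 each). Its call was lost without iPSC-derived replicate 1 or 2 or bone marrow-derived replicate 1 or 3 (1.96 to 6.16 over the 6 fits, the highest without bone marrow-derived replicate 2, which leaves 0 counts there), and that of C1qc without iPSC-derived replicate 1 or any of the 3 bone marrow-derived libraries (-1.51 to -0.95). The Cfb call was also lost in a fit on those 2 groups alone (adjusted p up to 0.23). Without iPSC-derived replicate 1, or without bone marrow-derived replicate 1 or 3, 3 of 9 genes passed.

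On day 3 8 of 9 genes differed between the sources, against 17.9% of tested genes, with C2 and C3ar1 higher in iPSC-derived cells and the other 6 lower. C1qa was lower by -0.93 ± 0.19 (adjusted p = 0.00075), C3 by -4.60 ± 0.37 (5.0e-09), Cfb by -4.15 ± 0.62 (2.1e-05) and C5ar1 by -1.005 ± 0.18 (0.00027). Without iPSC-derived replicate 1 the Cfb value was -4.98. C1qb was lower by -0.68 ± 0.19 (adjusted p = 0.015), a call lost without iPSC-derived replicate 1 or 2 (-0.79 to -0.60 over the 6 fits). C1qc differed by -0.90 ± 0.46 (adjusted p = 0.21).

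On day 6 6 of 9 passed, against 13.2%. C3 was lower in iPSC-derived cells by -2.96 ± 0.34 (adjusted p = 2.0e-06), Cfb by -4.74 ± 0.71 (3.1e-05) and C1qb by -0.67 ± 0.19 (0.022). Without iPSC-derived replicate 1 the Cfb value was -5.91. C1qa differed by -0.44 ± 0.19 (adjusted p = 0.14), and by -0.64 without the 4 libraries, which passed (0.042 to 0.53 over 13 alternatives). The C1qb call was lost without iPSC-derived replicate 2 or bone marrow-derived replicate 1 or 2, with -0.91 to -0.39 over the 6 fits, and in a fit on those 2 groups alone (adjusted p up to 0.20).

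On day 12 6 of 9 passed, against 9.77%, and the C1q genes were not among them. C1qa differed by 0.34 ± 0.19 (adjusted p = 0.30), C1qb by -0.01 ± 0.19 (0.98) and C1qc by 0.08 ± 0.46 (0.95). C5ar1 was higher in iPSC-derived cells by 1.36 ± 0.19 (adjusted p = 1.4e-05), beside C2 and C3ar1. C3 was lower by -1.30 ± 0.32 (adjusted p = 0.011) and Cfb by -3.58 ± 0.83 (0.0055), beside C4b. The Cfb call was lost without bone marrow-derived replicate 1, which had 4.41 CPM, and in a fit on those 2 groups alone (-3.90 to -2.66, adjusted p 0.0048 to 0.061 over the 6 fits). In the day 0 to day 12 change 3 of 9 genes differed between the sources, C1qb, Cfb and C5ar1, against 20.1% of tested genes. In the day 3 to day 12 change 3 did, C1qa, C3 and C5ar1, against 3.19%.

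**Figure D4:**
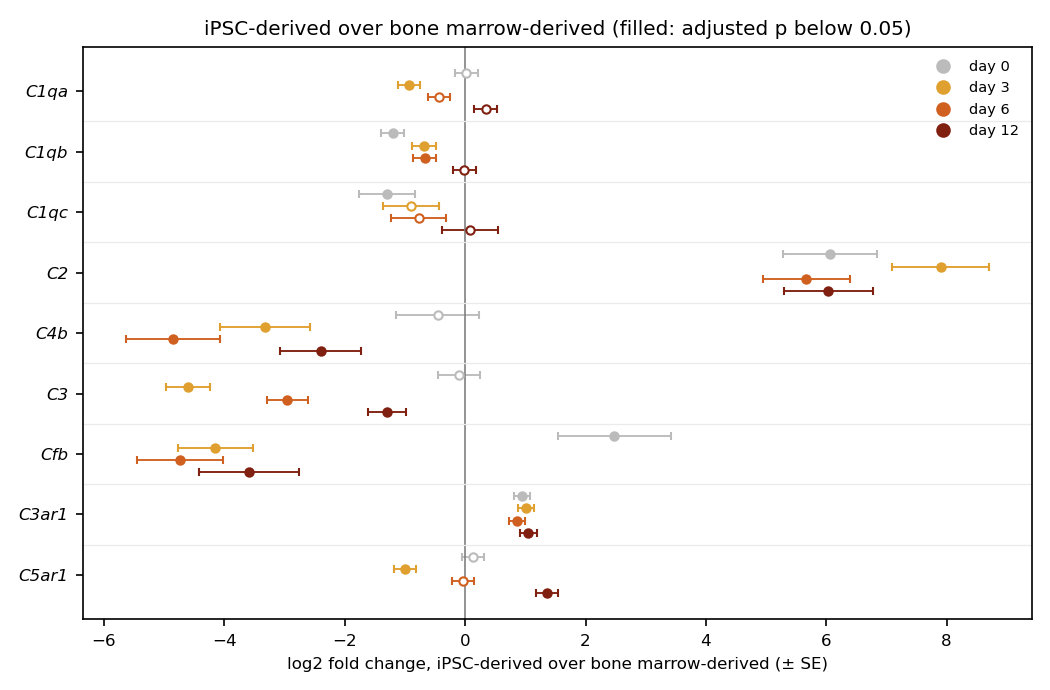
Log2 fold change of iPSC-derived over bone marrow-derived cells with SE for the 9 genes on days 0, 3, 6 and 12, from edgeR, with filled points where the adjusted p was below 0.05. C2 and C3ar1 are right of 0 on all 4 days, C3 is at -4.60 on day 3 and -1.30 on day 12, and C1qb is at -1.21 on day 0 and at -0.01 on day 12.

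Microglial markers were read beside the C1q genes. The sum of 8 microglial markers in iPSC-derived libraries was 6065 to 9414 CPM on day 12 and 1403 to 1769 CPM on day 0, and 7 of 8 rose. In bone marrow-derived libraries the sums were 6441 to 6882 CPM on day 12 and 740 to 874 CPM on day 0, and 6 of 8 rose. Sall1 and Siglech were at 0 in iPSC-derived cells on day 0, and Siglech again on day 12. The macrophage sum was 6999 to 9896 CPM in iPSC-derived and 40888 to 43693 CPM in bone marrow-derived libraries on day 0, where C1qb and C1qc were lower in iPSC-derived cells. That gap was mostly Lyz2, the lysozyme gene, at 2762 ± 1774 CPM in iPSC-derived and 32328 ± 1017 CPM in bone marrow-derived cells (SD, n = 3 each). The mean levels of Csf1r (1416 ± 350.4 and 5043 ± 147 CPM in iPSC-derived and bone marrow-derived cells), Adgre1 and Mertk were also below those of bone marrow-derived cells. Cd68 had 1997 ± 163 and 2144 ± 242 CPM, Spi1 322 ± 128 and 311 ± 4.71 CPM, and Fcgr1 280 ± 96.2 and 182 ± 16.6 CPM in iPSC-derived and bone marrow-derived cells, so the sum does not stand for each marker. On day 12 the sum was 13120 to 32882 CPM and 25635 to 29747 CPM in iPSC-derived and bone marrow-derived libraries. Its part in the C1q differences was not tested.

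Over the 8 group means of log2 CPM, C1qb and C1qc had a Pearson r of 0.98, C1qa and C1qb 0.85, C3 and Cfb 0.88, and C2 and C3ar1 0.95. The group means share libraries and scaling, so these are descriptions. Of 7848 other genes with at least 20 CPM in a group, those most like the mean of C1qa, C1qb and C1qc were Trib1 (0.99), Sh3bp1, Tmem176b and Ctla2b (0.98 each). Most like C3 were Cfap43, Uba7 and Kdm4b (0.99 each) and Arg1 (0.98), the arginase gene. Most like C3ar1 were Prox1 and Hnrnpk (0.98 each), Tln2 and Cxxc5 (0.97 each).

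The rest of the pathway was read from a list of 45 other complement genes, of which 24 had enough counts to be tested and 9 had 0 counts in every library, among them C6, C9 and Cfi. From day 0 to day 12, 9 of the 24 passed in iPSC-derived cells (7 up and 2 down), and 13 passed in bone marrow-derived cells (9 up and 4 down), against the 24.7% and 23.8% of all tested genes given above. Cd55 and Vtn, genes of a membrane-bound and a soluble brake on complement, were among those that rose in both. Cd55, encoding decay-accelerating factor, had 28.5 ± 23.4 CPM on day 12 and 1.69 ± 1.45 CPM on day 0 in iPSC-derived cells (SD, n = 3 each), and rose by 4.06 ± 0.93 (adjusted p = 0.0027). In bone marrow-derived cells Cd55 had 281 counts on day 12 and 1 count on day 0, a ratio of 217 (95% interval for counting error 38.6 to 8594). Vtn, encoding vitronectin, an inhibitor of the terminal complex that fibroblasts also deposit, had 84 counts on day 12 and 2 on day 0 in iPSC-derived cells, a ratio of 40.3 (10.8 to 338). It rose by 5.10 ± 1.15 in bone marrow-derived cells (adjusted p = 0.0018). Clu, encoding clusterin, fell in iPSC-derived cells (20.2 ± 5.85 CPM on day 12, 65.7 ± 24.9 CPM on day 0, log2 -1.70 ± 0.43, adjusted p = 0.0055). It had 360 counts on day 12 and 3 on day 0 in bone marrow-derived cells, a ratio of 92.6 (31.4 to 451).

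Among proteases, C1s1, the C1 protease that cuts C4 and C2, had 0 counts on day 0 in both sources and was at least 13.1-fold higher on day 12 in iPSC-derived cells and at least 10.03-fold higher in bone marrow-derived cells, against a floor of 3 counts over the group. It reached no more than 2.90 CPM as a group mean. C1ra, the protease that activates C1s, had 2.86 ± 1.63 CPM in iPSC-derived and 15 ± 3.38 CPM in bone marrow-derived cells on day 12 and was lower in iPSC-derived cells (-2.40 ± 0.51, adjusted p = 0.0023). Cfp, encoding properdin, which stabilises the alternative pathway enzyme, had 296 ± 207 CPM in iPSC-derived and 642 ± 148 CPM in bone marrow-derived cells on day 12 (-1.12 ± 0.55, adjusted p = 0.25). On day 3 Cfp was lower in iPSC-derived cells (218 ± 168 against 2882 ± 72.6 CPM, log2 -3.73 ± 0.60, adjusted p = 0.00017). Fcna, a lectin pathway ficolin gene, had 36.6 ± 15.4 CPM in iPSC-derived and 7.15 ± 3.51 CPM in bone marrow-derived cells on day 12 (2.36 ± 0.34, adjusted p = 3.5e-05). It fell over 12 days in bone marrow-derived cells (-1.67 ± 0.34, adjusted p = 0.00065).

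The other receptors included Itgam, the alpha chain of complement receptor 3, which rose by 0.79 ± 0.17 in iPSC-derived cells (adjusted p = 0.0010) and by 1.26 ± 0.17 in bone marrow-derived cells (adjusted p = 3.7e-06). On day 12 it had 150 ± 29.7 CPM in iPSC-derived and 326 ± 38.1 CPM in bone marrow-derived cells. Itgax, the alpha chain of complement receptor 4, fell in iPSC-derived cells (2.44 ± 1.21 CPM on day 12, 20.2 ± 7.03 CPM on day 0, log2 -3.05 ± 0.39, adjusted p = 2.4e-06). In bone marrow-derived cells it rose (24.7 ± 6.12 CPM on day 12, 5.17 ± 2.53 CPM on day 0, log2 2.26 ± 0.37, adjusted p = 5.1e-05). C5ar2, the other C5a receptor, rose with C5ar1 in iPSC-derived cells (2.33 ± 0.29, adjusted p = 2.0e-06) and differed by -0.04 ± 0.28 in bone marrow-derived cells (adjusted p = 0.94). Lrp1, an endocytic receptor, rose in both sources (0.92 ± 0.15, adjusted p = 8.0e-05, and 0.68 ± 0.15, adjusted p = 0.0017, in iPSC-derived and bone marrow-derived cells). Vsig4, a complement receptor of resident macrophages, had 7 counts on day 12 and 0 on day 0 in iPSC-derived cells (at least 2.24-fold higher, adjusted p = 0.13), and 1.73 ± 0.81 CPM and 1.18 ± 0.99 CPM in bone marrow-derived cells on those days.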

How the data were processed

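Gene expression was measured by RNA-seq (SMART-seq v2, total RNA) in 24 libraries. The authors deposited raw whole-number counts per gene, made from read pairs by featureCounts 1.5.0-p1 over GENCODE vM9 exons without a strand setting, leaving out reads that map to several places or genes, per the file headers. STAR and the GRCm38/mm10 build come from the submitters' processing notes. Spike-in RNA is named in the labels' protocols, and the table holds 0 such rows. Library totals of 5839316 to 11805478 counts set the precision, and intervals cover counting error only.

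Genes were kept by filterByExpr (minimum count 10, minimum total 15) and tested in 1 quasi-likelihood fit of edgeR 4.0.16 (R 4.3.3, robust, TMM scaling) with 1 coefficient per group and Benjamini-Hochberg adjustment within each of 14 contrasts. Interactions are the iPSC-derived change minus the bone marrow-derived change. Ratios of C1q counts were tested by exact permutation over libraries (scipy 1.17.1). The fit was tested on simulated data. Exonic length is the deposited length of each gene. Alternatives were other scalings, DESeq2 1.42.0, no filter, smaller fits, a replicate block and leaving out each library. The members and the gene, marker and motif lists were chosen with earlier results of these data known. Named in the text are all 9 members, pathway genes called in at least 2 of 3 day 12 comparisons, 8 fixed pathway genes (1 of which is not reported here) and the 4 likest genes per pattern.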

Additional observations from a re-analysis of the deposited data

Results flagged for a closer look

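For 5 of the 9 complement genes the change over time differed between iPSC-derived and bone marrow-derived macrophages by edgeR's quasi-likelihood test of the interaction, with Benjamini-Hochberg adjustment over 15000 genes. Values are the iPSC-derived change minus the bone marrow-derived change in log2 units. From day 0 to day 12 the interaction was 1.19 for C1qb (adjusted p = 0.0026), -6.06 for Cfb (0.00094) and 1.22 for C5ar1 (0.0012). From day 3 to day 12, within co-culture, it was 1.27 for C1qa (0.0068), 3.31 for C3 (0.00020) and 2.37 for C5ar1 (6.9e-06). C5ar1 passed over both spans. In the day 0 to day 12 change 20.1% of tested genes passed, and in the day 3 to day 12 change 3.19% did. The Cfb value rests on 5 counts in 3 iPSC-derived libraries on day 12 and 4 counts in 3 bone marrow-derived libraries on day 0, and ran from -9.72 to -5.14 with 1 library left out. The groups hold 3 libraries each. Apart from the 4 iPSC-derived libraries low in C1qc, picked out after the values were seen, no search for single outlying libraries was made within them.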

How the results depend on the processing

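No change of a member that passed reversed its direction under any alternative run. The largest relative moves in the counts of members called were as follows, and smaller moves are not listed. With no filter on low counts there were 8 for iPSC-derived day 3 against day 0, 5 for day 6 against day 0, 8 for day 12 against day 3, 8 for bone marrow-derived day 3 against day 0, and 6 and 5 for the interactions from day 0 and from day 3, against 4, 3, 3, 5, 3 and 3. These counts rest on the p-values of the fit with no filter, which are not taken at face value, as said for C1qc. A fit restricted to the compared groups called 8 for bone marrow-derived day 3 against day 0 and 5 for day 12 against day 3, against 5 and 2. DESeq2 called 5 for iPSC-derived day 12 against day 3, and so did the replicate block, against 3. The block ended 1 single-gene call, C1qc on iPSC-derived day 6 (1.37), and gained 7. In iPSC-derived cells these were C2 and C3 on day 3 (adjusted p = 0.0086 and 0.046), C3 on day 6 (0.048), Cfb on day 12 (0.041), and C1qb and C3 from day 3 to day 12 (0.035 and 0.044), and the last was the C3 interaction from day 0 (0.010, against 0.077 without the block). Same-numbered libraries within a source correlated at -0.20 to 0.38 (iPSC-derived, median 0.07) and -0.10 to 0.08 (bone marrow-derived, median 0.04) in their deviations. Differently numbered ones correlated at -0.45 to 0.27 (median -0.03) and -0.14 to 0.10 (median -0.01). In iPSC-derived cells replicate 3 had the highest C1qb and the lowest C2 and C3 of its group on every day. The deposited column names of iPSC-derived libraries run in order by replicate number and then by day. Those of bone marrow-derived libraries run by day and then by replicate number. Whether the numbers pair samples is thus not settled. Neither the main fit nor the permutation tests of C1q ratios paired them. The block fit gives the calls with pairing within a source for changes over days and interactions. For differences between the sources its block joined same-numbered libraries of both sources instead, whose deviations correlated at a median of -0.02. Without the 4 iPSC-derived libraries low in C1qc, chosen after seeing the data, 7 passed on day 3 against day 0, against 4. Of the 3 gained 1 is C1qc, whose spread that choice narrows. C2 and C3 were also gained, with day 0 replicates 2 and 3 set against day 3 replicates 1 and 2.

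Leaving out 1 library gave 3 to 7 calls for iPSC-derived day 3 against day 0 (7 without day 3 replicate 3), 2 to 3 for day 6, 5 to 6 for day 12 and 3 to 4 for day 12 against day 3. It gave 4 to 5 for bone marrow-derived day 3 against day 0, 5 to 6 for day 6 and 4 to 5 for day 12. For the sources it gave 3 to 5 on day 0 and 7 to 8 on day 3. It gave 5 to 7 on day 6 and 4 to 6 on day 12 there, and 3 to 4 for the interaction from day 0. Of 864 single-gene results with 1 library left out, 818 kept their side of the threshold and direction, 36 lost a call and 10 gained one. Dropping the scaling factors moved the median over all genes by up to -0.30 (interaction from day 0), and changed 7 of 126 single-gene calls. Depth limits Cfb, C4b and C2, which had under 100 counts over 3 libraries in several groups.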
